A study of Mus musculus with 3 samples.

Results

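The genes described here are 4 bone morphogenetic protein (BMP) ligands, Bmp2, Bmp4, Bmp7 and Bmp8b, and 6 secreted BMP antagonists or modulators, Nog, Chrd, Grem1, Fst, Twsg1 and Nbl1. They were chosen by name, and all 17 probe sets that the platform annotation pairs with these 10 genes were taken, out of 45101 probe sets on the array and 18193 genes with a probe set of their own. No probe set paired with several genes held one of the 10. Expression was measured in R1 cells, an undifferentiated mouse embryonic stem cell line, on 1 Affymetrix array per condition. The BMP4 array held cells given BMP4 at 20 ng/ml for 4 h, the noggin array held cells given noggin at 100 ng/ml for 4 h, and the untreated array held cells given neither. All 3 arrays share the same line, and the labels name no feeder layer, serum or passage. With 1 array per condition there is no replicate error, and no test was made.

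BMPs are secreted dimers of the TGF-beta superfamily that bind type I and type II receptor kinases, which phosphorylate SMAD1, SMAD5 and SMAD9. Extracellular antagonists bind the ligands and keep them from the receptors, so the signal a cell receives depends on the balance of both. In mouse embryonic stem cells, BMP4 together with LIF is known to sustain self-renewal through Id genes, whose products block basic helix-loop-helix factors.

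Values are log2 expression values, so a difference of 1 is a 2-fold difference. A floor was set at 3.44, the median of all values, and a gene was kept when its probe set with the highest mean exceeded that floor on at least 1 array. Of the 10 genes, 6 were kept, Bmp4, Bmp7, Bmp8b, Chrd, Grem1 and Twsg1, against 63.7% of all genes. The kept genes make up 3 of the 4 ligands and 3 of the 6 antagonists. Bmp2, Nog, Fst and Nbl1 had no probe set above the floor on any array. By probe set, 8 of the 17 exceeded the floor, against 50.5% of all probe sets. The value does not separate low expression from none, and a signal depends on the probes as well as on the transcript, so levels of different genes are set only against the floor.

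**Figure D1:**
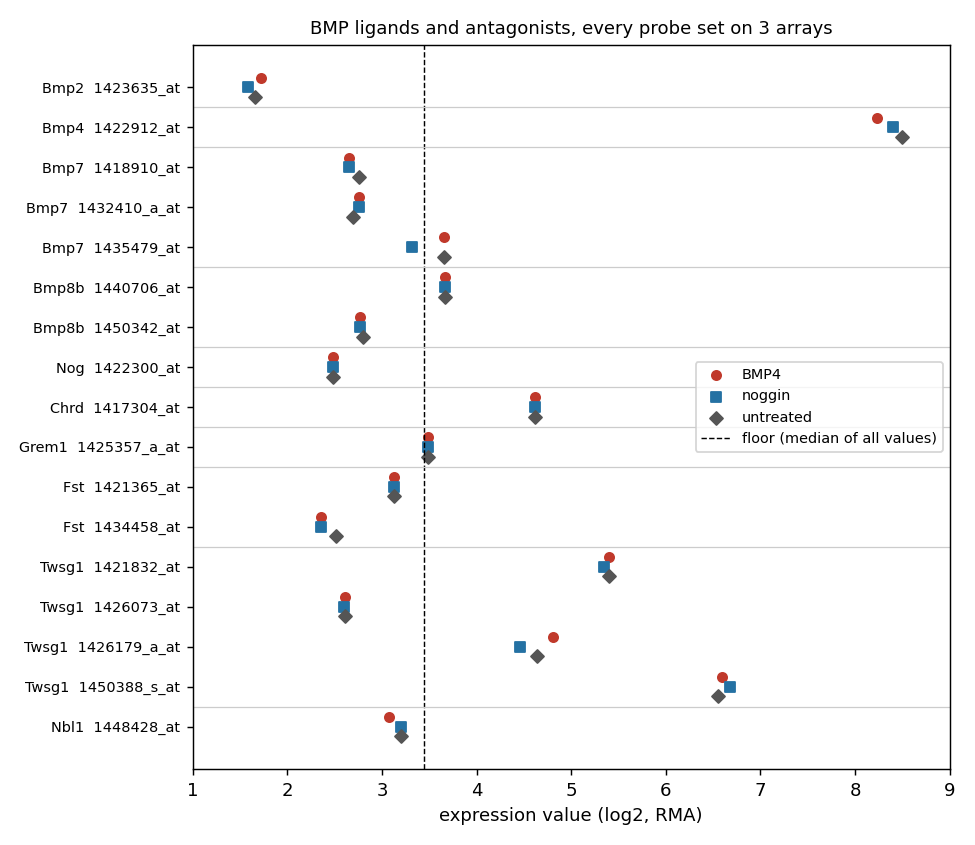
Log2 RMA expression value (horizontal axis) of each of the 17 probe sets (rows, grouped by gene) on the BMP4 (red circles), noggin (blue squares) and untreated (grey diamonds) arrays, 1 array each. The dashed line is the floor of 3.44. Bmp4 lies far to the right of it on all 3 arrays, 3 of the 4 Twsg1 probe sets and Chrd lie to its right, and Bmp7 probe set 1435479_at lies to its left on the noggin array alone.

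Among the ligands, Bmp4 stood clear of the floor in every condition. Its single probe set, 1422912_at, measured 8.24 in BMP4-treated, 8.40 in noggin-treated and 8.50 in untreated cells. From high to low the order was untreated, noggin, BMP4. Bmp4 encodes the ligand that was itself added as protein to 1 of the cultures, and the array reads the cells' own transcript.

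Bmp7, a ligand needed for kidney and eye development in the mouse, was near the floor. Its probe set 1435479_at measured 3.65 in BMP4-treated, 3.31 in noggin-treated and 3.65 in untreated cells. The BMP4 and untreated values were equal to 6 decimals, and the noggin value alone was below the floor. The other Bmp7 probe sets were below the floor on every array. Probe set 1418910_at measured 2.65, 2.65 and 2.75 on the BMP4, noggin and untreated arrays, and probe set 1432410_a_at measured 2.75, 2.75 and 2.70. In both of them the treated arrays had the same value, on opposite sides of the untreated one, so the 3 probe sets of Bmp7 gave 3 different patterns.

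Bmp8b acts with Bmp4 in the induction of mouse germ cells. Its probe set 1440706_at measured 3.67 on all 3 arrays, just above the floor. Its other probe set, 1450342_at, measured 2.76 on the BMP4 and noggin arrays and 2.80 on the untreated array. Bmp2, the closest relative of Bmp4 in sequence, measured 1.73 in BMP4-treated, 1.59 in noggin-treated and 1.66 in untreated cells. Those Bmp2 values lie in the lowest part of the range, where the 5th percentile of all probe sets was 1.82 in BMP4-treated, 1.60 in noggin-treated and 1.82 in untreated cells.

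Among the antagonists, Twsg1 and Chrd were the 2 whose values lay well above the floor. Twsg1 encodes twisted gastrulation, which binds BMPs and chordin and can act for or against BMP signalling. Its highest probe set, 1450388_s_at, measured 6.59 in BMP4-treated, 6.68 in noggin-treated and 6.56 in untreated cells. Probe set 1421832_at, for which the annotation gives the same source sequence, measured 5.40, 5.35 and 5.40. Probe set 1426179_a_at measured 4.80, 4.46 and 4.64, and 1426073_at, below the floor, measured 2.61, 2.60 and 2.61. The noggin value was the highest of the 3 arrays in the first of these probe sets and the lowest in the other 3.

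Chrd encodes chordin, which is cleaved and inactivated by proteases of the BMP1 and tolloid family. Its single probe set, 1417304_at, measured 4.62 on the BMP4, noggin and untreated arrays alike. Grem1 encodes gremlin, a cystine-knot antagonist of limb and kidney development, and measured 3.48 on all 3 arrays, close to the floor. No difference between the arrays was recorded for either gene.

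Nog, the gene of the protein added to 1 of the cultures, measured 2.48 in BMP4-treated, 2.48 in noggin-treated and 2.49 in untreated cells. Fst encodes follistatin, which binds activins and, less tightly, BMPs. Its probe set 1421365_at measured 3.13 on every array, and 1434458_at measured 2.35, 2.35 and 2.51 on the BMP4, noggin and untreated arrays. Nbl1 encodes DAN, for which the DAN family of antagonists is named, and measured 3.07 in BMP4-treated, 3.20 in noggin-treated and 3.20 in untreated cells. All values of Nog, Fst and Nbl1 were below the floor.

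Upstream sequences are shown for Bmp4, Chrd and Twsg1, the 3 genes whose values stood clear of the floor. They are the 250 bases before the RefSeq start in mouse build GRCm38.p6, at chr14:46390670-46390919 (minus strand) for Bmp4, chr16:20732877-20733126 (plus strand) for Chrd and chr17:65951188-65951437 (minus strand) for Twsg1. Capitals mark GGCGCC, a palindromic element bound by BMP-activated SMADs in the Id1 gene.

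Bmp4: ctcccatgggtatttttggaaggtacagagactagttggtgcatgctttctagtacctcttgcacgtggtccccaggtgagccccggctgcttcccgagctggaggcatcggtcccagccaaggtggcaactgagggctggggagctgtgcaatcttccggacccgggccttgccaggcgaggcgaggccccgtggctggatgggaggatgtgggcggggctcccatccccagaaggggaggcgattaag

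Chrd: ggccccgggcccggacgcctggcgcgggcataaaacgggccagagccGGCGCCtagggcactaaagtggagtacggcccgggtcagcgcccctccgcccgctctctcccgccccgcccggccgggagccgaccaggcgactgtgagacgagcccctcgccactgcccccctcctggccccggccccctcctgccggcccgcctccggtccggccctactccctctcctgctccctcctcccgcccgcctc

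Twsg1: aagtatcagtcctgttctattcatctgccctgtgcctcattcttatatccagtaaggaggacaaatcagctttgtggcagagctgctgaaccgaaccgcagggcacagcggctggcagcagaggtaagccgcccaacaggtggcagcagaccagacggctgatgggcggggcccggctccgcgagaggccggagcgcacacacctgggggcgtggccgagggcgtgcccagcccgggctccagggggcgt

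The Chrd window holds 1 GGCGCC, which begins 203 bases before the start, and the Bmp4 and Twsg1 windows hold none. The promoter table matched 6 of the 10 genes, and 3 of those 6, Chrd, Grem1 and Nbl1, hold GGCGCC, against 9.59% of 32851 promoter windows of the same length. Their G and C content was 78% for Chrd, 72% for Grem1 and 77.6% for Nbl1, and 63.2% for Bmp4, 65.2% for Bmp8b and 64.4% for Twsg1. The other motif searched, GTCTAGAC, was in none of the 6 windows and in 0.167% of all. Both motifs read the same on either strand and do not overlap each other. A match describes the letters only. In their highest probe sets, neither the 3 genes with GGCGCC nor Bmp4, Bmp8b and Twsg1 reached a 1.2-fold difference in any comparison. Chrd and Grem1 had equal values on all 3 arrays and Nbl1 was below the floor, and the part of the motif was not tested.

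The comparison of BMP4-treated with untreated cells asks whether cells given BMP4 carry different levels of transcripts for BMP ligands and their inhibitors. Of the 6 kept genes, Bmp4 was lower, Twsg1 was higher by 0.03, and Bmp7, Bmp8b, Chrd and Grem1 were equal on both arrays, as were 39.6% of all kept genes. Equal values were thus common in this table, and an equal value does not show that the levels did not differ. The difference of Bmp4 was −0.261, just short of the 1.2-fold limit of 0.263 on the log2 scale. A difference at least as low was found in 2.37% of the 11594 kept genes of the array. None of the 6 was at least 1.2-fold higher, against 1.59% of all kept genes, and none was at least 1.2-fold lower, against 2.25%. Differences of at least 1.5-fold in either direction were found in 0.276% of all kept genes and in none of the 6. The median difference was 0.00 over the 6 and 0.00 over all kept genes.

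The differences of the probe sets below the floor were small. The lowest were −0.16 for Fst probe set 1434458_at, −0.13 for Nbl1 and −0.11 for Bmp7 probe set 1418910_at, and the highest was 0.07 for Bmp2. Nog differed by −0.01. Of the Twsg1 probe sets above the floor, 1426179_a_at differed by 0.16 and 1421832_at by 0.00, beside 0.03 for the highest. Across the array, the differences of probe sets of the same gene had a within-gene SD of 0.13. That SD measures how far probe sets of a gene disagree on the same arrays, and not how far cultures or arrays differ. The difference of Bmp4 exceeded it, and rests on 1 probe set.

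Other values also differed between these arrays. The poly-A spikes, RNA added before labelling, had a median difference of −0.63 between BMP4-treated and untreated cells, and 24 of their 24 probe sets were lower, while the 18 hybridisation spikes had a median difference of 0.01. The 10 fibroblast markers, of which 6 were above the floor, summed on the linear scale to 138 in BMP4-treated, 152 in noggin-treated and 153 in untreated cells, with Col1a1, Col3a1, Lum and Fap below the floor. The 8 markers of embryonic stem cells were all above it, and summed to 23358, 22717 and 22829 in the same order. Above the floor were also 5 of 8 primitive endoderm markers, with sums of 134, 110 and 108, 4 of 7 trophoblast markers, with sums of 202, 172 and 181, and 2 of 5 neuroectoderm markers, with sums of 84.5, 90.8 and 86. In cultures measured as a whole, fewer cells of a type and less RNA per cell cannot be told apart. The part of these values in the lower Bmp4 value was not tested.

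The comparison of noggin-treated with untreated cells asks the same of cells in which a BMP antagonist was present. Of the 6 kept genes, Bmp7 and Bmp4 were lower, Twsg1 was higher in its highest probe set alone, and Bmp8b, Chrd and Grem1 were equal. Bmp7 differed by −0.34, a 1.26-fold lower value that ended below the floor, and 0.88% of kept genes had a difference at least as low. That share is over kept genes at all levels, while Bmp7 was near the floor. With no floor, 7.84% of all genes passed 1.2-fold in either direction here, beside 2.79% of kept genes. Bmp4 differed by −0.09, which was within the within-gene SD of 0.11, and 13.1% of kept genes lay at least as low. Twsg1 differed by 0.12 in its highest probe set, by −0.05 in 1421832_at and by −0.18 in 1426179_a_at.

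Bmp7 was thus the 1 of the 6 at least 1.2-fold lower with noggin, against 1.9% of all kept genes. None was at least 1.2-fold higher, against 0.897%, and none reached 1.5-fold in either direction, against 0.0776%. The median over the 6 and that over all kept genes were both 0.00. Since the other Bmp7 probe sets differed by −0.11 and 0.06, the lower Bmp7 value was not shared by the gene's 3 probe sets. With the probe sets of each gene averaged, Bmp7 was below the floor and 0 of the genes passed 1.2-fold. The poly-A spikes had a median difference of −0.18 in this comparison, with 23 of 24 lower. This comparison and that of BMP4 share the untreated array, so their values are not independent of each other.

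**Figure D2:**
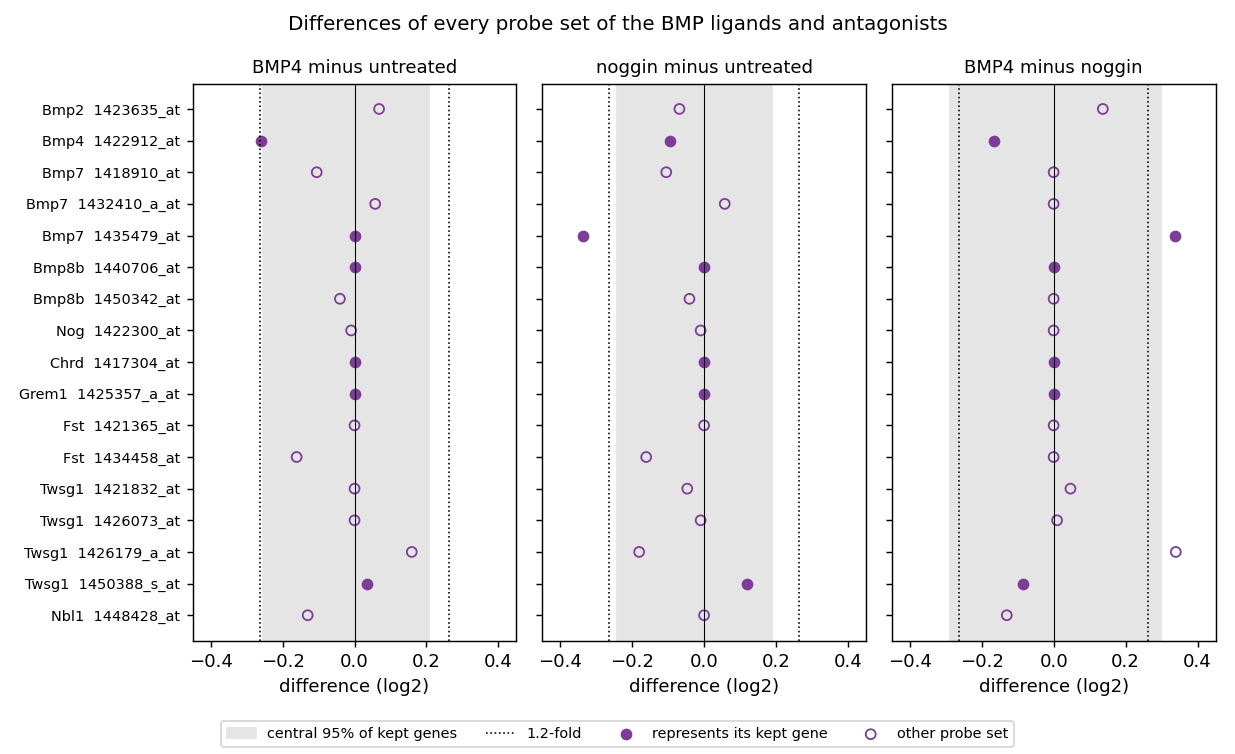
Log2 difference (horizontal axis) of each of the 17 probe sets (rows) for BMP4 minus untreated, noggin minus untreated and BMP4 minus noggin. Filled points represent a kept gene, open points are the other probe sets, the grey band holds the central 95% of the 11594 kept genes, and dotted lines mark 1.2-fold. Bmp4 sits at the left dotted line for BMP4 minus untreated, and Bmp7 probe set 1435479_at lies beyond the lines in the noggin comparisons. Twsg1 probe set 1426179_a_at lies beyond the right line for BMP4 minus noggin, and most other points are at or near 0.

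BMP4-treated cells were also compared directly with noggin-treated cells, the pair of arrays furthest apart in BMP signal by design. Bmp7 was higher with BMP4 by 0.34, while Bmp4 differed by −0.17 and Twsg1 by −0.09. That value of Bmp7 is set against one below the floor on the noggin array, and both other Bmp7 probe sets differed by 0.00. Bmp8b, Chrd and Grem1 were equal. Bmp7 was the 1 of the 6 at least 1.2-fold higher, against 3.37% of all kept genes, and none was at least 1.2-fold lower, against 3.26%. At 1.5-fold, 0.518% of all kept genes and none of the 6 passed. By probe set, 2 of the 8 that exceeded the floor, Bmp7 1435479_at and Twsg1 1426179_a_at, were at least 1.2-fold higher, each with a difference of 0.34, against 6.1% of 20122 such probe sets paired with 1 gene. The highest Twsg1 probe set went the other way, at −0.09, and the within-gene SD was 0.16.

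Readout genes of the pathway, from a list chosen with earlier results of these data known, were set beside these values. In the highest probe sets, BMP4 minus noggin was 0.13 for Msx1 and 0.18 for Smad7, and at least 0.47 for the rest. The other probe set of Gata2 gave 0.38 and that of Msx2, below the floor, 0.09. The other Smad7 probe set gave 0.32. The 0.34 of Bmp7 exceeded the values of Msx1 and Smad7, but came from 1 probe set near the floor. Both other Bmp7 probe sets differed by 0.00, so the order of Bmp7 and these readout genes depends on the probe set taken. Id1, Id2 and Id3, the classical BMP-SMAD targets, measured 11.54, 8.90 and 9.16 in BMP4-treated cells, 8.59, 4.31 and 5.31 in noggin-treated cells, and 8.78, 4.80 and 5.58 in untreated cells. Of 10 readout genes, 10 were higher with BMP4 than without, with a median difference of 0.92, beside 2871 higher among the 11594 kept genes. At least 1.2-fold higher were 9 of the 10, against 1.59% of all kept genes. At least 1.5-fold higher were 7 of the 10, against 26 of the 11594. Besides the 3 Id genes and Smad6, those past 1.5-fold were Msx2, a homeobox gene, at 1.54, Gata2, a zinc finger factor, at 0.99 and Id4, a further Id gene, at 0.84. The other probe sets of Msx2, Gata2 and Id4 fell short of 1.5-fold. They differed by 0.03 for Msx2, below the floor, by 0.27 for Gata2, and by 0.50 and 0.34 for Id4. With noggin, 4 of the 10 were at least 1.2-fold lower, against 1.9% of all kept genes, and none at least 1.2-fold higher, against 0.897%. Of the 4, Id3, at −0.263, only just reached the limit. The 10 differences had a median of −0.10 and a range from −0.49, for Id2, to 0.16. The other Id2 probe sets differed by −0.05 with noggin and, below the floor, by −0.54. The other Id4 probe sets differed by −0.41 and −0.22, and that of Gata2 by −0.11. The lower end of the range and the count of 4 thus depend on the probe set taken. The inhibitory SMAD genes Smad6 and Smad7, intracellular feedback inhibitors, differed by 0.67 and 0.34 with BMP4 and by 0.00 and 0.16 with noggin. The other Smad7 probe set, also above the floor, differed by 0.13 with BMP4 and by −0.19 with noggin. The upper end of the noggin range, 0.16, was thus not shared by both Smad7 probe sets. Of the kept ligand and antagonist genes, Twsg1, at 0.03, was the 1 with a value above 0 for BMP4 minus untreated.

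**Figure D3:**
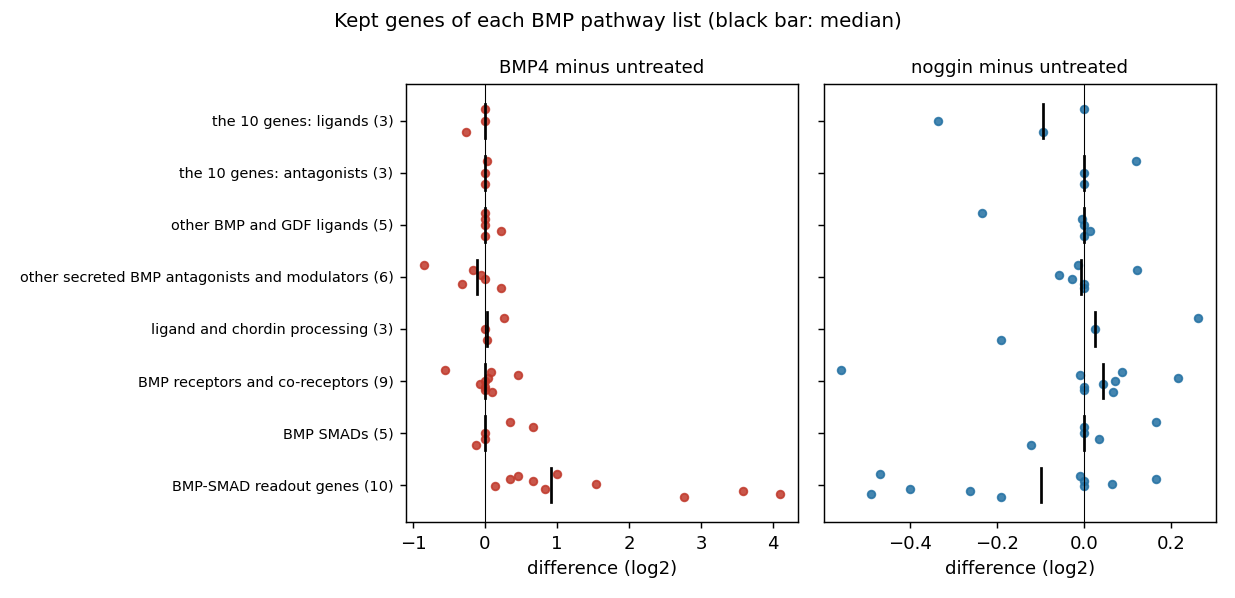
Log2 difference (horizontal axis, on a different scale in each panel) of the kept genes of 8 BMP pathway lists (rows, number kept in brackets) for BMP4 minus untreated and noggin minus untreated, with black bars at the medians. Smad6, Smad7 and Bambi stand in 2 lists. With BMP4 the readout genes spread to the right up to Id2 at 4.10, and the ligands and antagonists lie between −0.26 and 0.03.

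Other secreted components of the pathway were taken from lists that were chosen with earlier results of these data known. Of 16 further BMP and GDF ligands, 11 had a probe set named for them alone and 5 of these were kept, of which none reached 1.2-fold in any comparison. Gdf3, a ligand expressed by pluripotent cells, measured 9.21 in BMP4-treated, 9.21 in noggin-treated and 9.22 in untreated cells. Bmp10, a ligand of the developing heart, was higher by 0.23 with BMP4 and by 0.01 with noggin. Gdf9, the oocyte ligand, was equal with BMP4 and differed by −0.23 with noggin, where it measured 3.42 and was below the floor like Bmp7.

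Of 15 other antagonists and modulators, 13 had such a probe set and 6 were kept. Of the 6, 1 was higher with BMP4 and 5 were lower, beside 2871 higher and 4129 lower among the 11594 kept genes. Of the 5, 2 were at least 1.2-fold lower, against 2.25% of all kept genes, while Fstl3 and Crim1 differed by only −0.0028 and −0.058. Their median was −0.11 with BMP4 and −0.01 with noggin, against 0.00 over all kept genes. Over the 13 with no floor, the medians were −0.0028 and −0.052. Bgn, the matrix proteoglycan biglycan, measured 4.30 in BMP4-treated, 5.13 in noggin-treated and 5.15 in untreated cells. The other Bgn probe sets differed by −0.93 and 0.00 between the BMP4 and untreated arrays. Fstl1, a follistatin-like glycoprotein, differed by −0.32 with BMP4 and by 0.00 with noggin, and its second probe set by 0.00 with BMP4. Dand5, a Nodal and BMP antagonist of the DAN family, was the 1 higher with BMP4, by 0.23. The sum of the fibroblast markers was lower on the same array, where 4 of the 10 markers were lower than untreated and 2 higher. The part of these markers in the values of Bgn and Fstl1 was not tested.

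Of 6 genes that process ligands or chordin, 3 were kept and none reached 1.2-fold. Bmp1, the protease that cleaves chordin, was higher by 0.26 on both treated arrays, at 4.44 in BMP4-treated, 4.44 in noggin-treated and 4.18 in untreated cells, while its other probe sets, below the floor, differed by −0.22 and 0.00 with BMP4 and by −0.38 and 0.00 with noggin. Furin, a convertase that cuts BMP precursors, differed by 0.03 with BMP4 and by −0.19 with noggin. Among 12 receptors and co-receptors, 9 were kept. Bambi, a pseudoreceptor that dampens the signal, was the 1 at least 1.2-fold higher with BMP4, by 0.46, and Hjv, a BMP co-receptor of iron metabolism, was the 1 at least 1.2-fold lower, with differences of −0.55 with BMP4 and −0.56 with noggin. Hjv was below the floor on both treated arrays, and its other probe set differed by 0.00 with BMP4 and −0.034 with noggin. Of 6 SMAD genes 5 were kept, and Smad6 and Smad7 were the 2 that passed 1.2-fold with BMP4, Smad7 in its highest probe set alone.

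The genes whose pair of differences from the untreated array lay nearest to that of Bmp4 were Stk26, Ammecr1l and Zfp810, with Euclidean distances of 0.0047, 0.013 and 0.015 on the log2 scale. Within 0.1 of Bmp4 there were 225 genes. For Bmp7, which had the widest range over the arrays among the probe sets that represent the 6 kept genes, the nearest were Plek2, Slfn2 and Itpr2, at 0.00051, 0.0014 and 0.0026, and 112 genes lay within 0.1. With 3 arrays these distances describe the values and do not single the genes out.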

How the data were processed

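The deposited table holds 1 log2 value for each probe set and array, which the authors computed by RMA, per the submitters' processing notes. That method normalizes between arrays and summarises the probes of each probe set. Version, settings and genome build are not given in the sources used here. Total RNA was purified with a column kit and biotin-labelled, per the labels' protocols. Of the probe sets, by the platform annotation, 34945 were paired with 1 gene, 932 with several and 9160 with none, and 64 were controls. Differences of the deposited values were taken with Python 3.11.15 and pandas 2.3.3, without further normalization, and the counting was tested on simulated data. A gene was represented by its probe set with the highest mean, and kept if it exceeded the overall median, as 11594 genes did. Values equal to 6 decimals were called equal. The size limits were 1.2-fold and 1.5-fold. Arrays have no read depth, and 1 array per condition limits the precision: no SD between samples or p-value can be had. The 10 genes, all printed, and the lists were chosen with earlier results of these data known. From the other lists, genes past 1.5-fold, some of those with the largest differences, Id1 to Id3, Smad6 and Smad7 were named. The alternatives were the mean over probe sets, plain-suffix probe sets alone, median-centred or loess-corrected (span 0.3) differences, no floor and a floor at the 75th percentile, and probe sets as units for the background. Upstream sequences are from RefSeq, GRCm38.p6.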

Additional observations from a re-analysis of the deposited data

How the results depend on the processing

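The difference of Bmp4 with BMP4 lay between −0.261 and −0.256 under the 6 alternatives, and with noggin between −0.094 and −0.088. Only the loess correction could move these values. Bmp4 has 1 probe set, with the plain suffix and above both floors, and the medians over all kept genes were 0.00. The narrow range is thus no measure of how stable the differences are. The counts of genes past 1.2-fold, 1 of 6 with noggin against untreated and 1 of 6 for BMP4 against noggin, both Bmp7, were 0 when probe sets were averaged, which left 4 of the 10 genes above the floor, and 0 with the floor at the 75th percentile, which left Bmp4 and Twsg1. The difference of Twsg1 with noggin, 0.12, was −0.029 with probe sets averaged and −0.047 with plain-suffix probe sets, and its BMP4 minus noggin value, −0.09, was 0.077 with probe sets averaged and 0.047 with plain-suffix probe sets, because its probe sets differ in sign. With no floor, the share of all genes past 1.2-fold in either direction was 7.84% for noggin against untreated and 10.2% for BMP4 against noggin, beside 2.79% and 6.63% with it. For BMP4 against untreated it was 3.51%, beside 3.84% with the floor, and the cause was not tested. With no floor, the median of the other antagonists and modulators for BMP4 minus noggin was 0.13 over 13 genes, beside −0.14 over 6. With probe sets averaged, the median of the processing genes with noggin was −0.084 over 2 genes, beside 0.024 over 3, and that of the readout genes over 9 genes was 0.67 against untreated cells and 0.90 against noggin for BMP4, beside 0.92 and 1.35 over 10. In 68 summaries and 84 single-gene values recomputed, that of Twsg1 for BMP4 minus noggin with plain-suffix probe sets included, the value moved by less than the within-gene SD, or the count or share by at most 1.5 times. No paired analysis was possible because each condition has 1 array. Values below the floor are close to the array background, which limits what can be read from Bmp2, Nog, Fst and Nbl1.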

Other observations

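Many probe sets had exactly the same value as others on the same array, which bears on how finely the values resolve. Values shared to 6 decimals were held by 69.8% of the 45037 probe sets in BMP4-treated, 65% in noggin-treated and 71.7% in untreated cells. Bmp7 probe set 1435479_at, at 3.65, shared its value with 104 others in BMP4-treated, 0 in noggin-treated and 183 in untreated cells. Bmp8b probe set 1440706_at shared its value with 165, 81 and 101 others in the same order of arrays, and Bmp4 with 3, 4 and 4. For 9 of the 17 probe sets of the ligands and antagonists the value was shared on all 3 arrays.

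Exact equality between arrays was also common among these 17 probe sets. In 4 of them, 23.5%, all 3 arrays had the same value, against 26.1% of all probe sets. In 5 of them, 29.4%, the BMP4 and noggin arrays had the same value and the untreated array another, against 7.47% of all, and all 5 were below the floor (in Bmp7, Bmp8b, Nog and Fst). No test was made of this difference, which was noticed in these data.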
